A study of Mus musculus with 16 samples.

Results

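Cdkn2a and Cdkn2b are neighboring genes that encode inhibitors of the cell cycle, and they were taken by symbol from the deposited gene tables, as 2 of 55487 genes. Their transcripts in the isoform tables were 3 of 142238. Cdkn2a had 2 of them, Cdkn2a-202 for Arf and Cdkn2a-201 for Ink4a, and Cdkn2b had 1, Cdkn2b-201.

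RNA was measured in 16 organoid lines of pancreatic ductal adenocarcinoma from 6 mice of the KPC model, strain C57BL6/J per the labels. Among the alleles of the KPC model is a mutant Trp53 that Cre recombinase, driven by the Pdx1 promoter of pancreatic progenitors, turns on, and tumor and metastasis lines share this model. The labels do not spell out the alleles, and they give no age. The 7 tumor lines came from primary tumors (T3, T6, T19, T23 and T34 of mice 1 to 5 in that order, and T69a and T69b of mouse 6). The 9 metastasis lines came from liver (M1 of mouse 1, M28 of mouse 6), peritoneum (M3P, M6 and M10 of mice 2, 3 and 4), diaphragm (M15 of mouse 5, M29 of mouse 6), lung (M16 of mouse 5) and ovary (M30 of mouse 6). Organoids are epithelial cultures grown in a gel of basement membrane proteins. Every line grew in Matrigel under 1 medium that held EGF, FGF-10, noggin, gastrin, R-spondin and A83-01, a blocker of TGF-beta type I receptors. Each line gave 1 library, so the lines stand for cultures, and lines of 1 mouse are not independent animals.

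Ink4a and the Cdkn2b protein, known as p16 and p15, bind the kinases Cdk4 and Cdk6 and keep them from cyclin D, which leaves the retinoblastoma protein active and E2F factors silent. Arf, known as p19Arf in the mouse, instead binds Mdm2, the ubiquitin ligase that degrades p53, and so stabilizes p53. Arf and Ink4a start from separate promoters and first exons but share exon 2, which they read in different frames. The locus is a well known tumor suppressor of the pancreas and is silenced or lost in most human tumors of this kind.

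On GRCm38, Cdkn2a lay on the minus strand at chr4:89274471-89294653 and Cdkn2b on the same strand at chr4:89306299-89311039, where the Cdkn2b 3′ end was 11646 bases upstream of the Arf start. The Arf first exon (chr4:89294334-89294653) was 320 bases long and began 12461 bases upstream of the Ink4a start. The Ink4a first exon (chr4:89281986-89282192) was 207 bases long. Both were spliced to the same exon 2 (chr4:89276645-89276985). In the annotation, exon 2 was entered at phase 0 in Ink4a and at phase 2 in Arf, which is the change of reading frame. Reads tell both transcripts apart by these first exons and by 70 bases at the Ink4a 3′ end. The junctions of the first exons are shown, with the last 30 bases of the transcript's own first exon in capitals. The first 30 bases of the shared exon 2 are in lower case.
Arf: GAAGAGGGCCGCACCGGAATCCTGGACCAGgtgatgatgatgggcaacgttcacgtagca
Ink4a: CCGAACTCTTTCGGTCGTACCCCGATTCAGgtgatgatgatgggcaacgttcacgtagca

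Of the 852 bases of the Ink4a transcript, 277 were its own (207 in the first exon and 70 at the 3′ end) and 575 were shared with Arf. Of the 895 bases of the Arf transcript, 320 were its own. The quantification therefore divided reads from the shared exons between both transcripts, and their levels are estimates. Cdkn2a and Cdkn2b were easier to separate. The longest run of identical bases between a Cdkn2a transcript and Cdkn2b was 23, their best local alignments were 78.7% identical for Ink4a and 80.4% for Arf, and the expected counts of both genes were whole numbers (within 0.005) in 16 of 16 lines. No annotated gene on the other strand overlapped either gene.

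The sequences just upstream of the 3 transcript starts are shown because each promoter is a separate point of control of the levels below. They come from RefSeq (GRCm38.p6), run 5′ to 3′ on the minus strand, and all 3 starts were matched. Arf is chr4:89294654-89294869, Ink4a chr4:89282193-89282442 and Cdkn2b chr4:89311040-89311282. Capitals mark matches on either strand to 4 motifs, the GC box GGGCGG, the E2F-type TTTNNCGC, the AP-1 site TGANTCA and the CRE TGACGTCA.
Arf: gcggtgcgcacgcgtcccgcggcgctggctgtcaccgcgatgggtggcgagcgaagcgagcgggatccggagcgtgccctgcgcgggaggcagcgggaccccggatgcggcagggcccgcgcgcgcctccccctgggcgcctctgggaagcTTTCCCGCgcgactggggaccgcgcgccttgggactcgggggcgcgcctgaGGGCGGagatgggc
Ink4a: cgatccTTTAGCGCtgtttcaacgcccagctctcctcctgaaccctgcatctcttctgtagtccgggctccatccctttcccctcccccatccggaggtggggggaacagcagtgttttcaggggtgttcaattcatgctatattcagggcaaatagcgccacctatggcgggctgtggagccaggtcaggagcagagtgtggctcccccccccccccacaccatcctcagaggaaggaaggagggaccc
Cdkn2b: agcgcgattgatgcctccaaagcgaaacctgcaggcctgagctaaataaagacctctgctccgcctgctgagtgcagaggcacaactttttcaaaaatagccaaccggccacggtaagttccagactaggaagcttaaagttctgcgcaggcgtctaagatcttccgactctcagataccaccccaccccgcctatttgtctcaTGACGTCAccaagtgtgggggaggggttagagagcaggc

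The Arf promoter stood apart in base composition. In the 250 bases before the RefSeq start it held 40 CpG dinucleotides and 78.4% G or C, and 98.7% of 32851 promoter windows of that length held fewer CpG. The Ink4a window held 7 CpG at 60.0% G or C, near the median of 6 over all windows, and the Cdkn2b window held 12 at 53.6%. The E2F-type motif had 1 match in the Arf window and 1 in the Ink4a window, against 4.28% of all windows with a match. The GC box had 2 matches in the Arf window, of which 1 lies in the bases printed, and 32.7% of all windows held it. The CRE had 1 match, in the Cdkn2b window, and 1.55% of all windows held it. The AP-1 site had no match in the 3 windows and was present in 6.75% of all. No 2 of these 4 motifs overlapped in the printed sequences.

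Library totals ran from 24624420 to 49965492 expected counts. Counts of 4 abundant genes (Lars2, mt-Rnr2, AY036118 and CT010467.1, each above 5% of some library) made up 44.5% of T6 and 76.7% of M15, against 12.7% to 29.5% in the other lines. TPM, the authors' length-scaled abundance, is a share of the library and is therefore low in M15, where Cdkn2a had 43.6 TPM. Scaled counts (CPM) on TMM-scaled library sizes, which discount such genes, are used to compare lines, and gave 78.8 for Cdkn2a in M15. All lines had epithelial marker RNA, with a summed level of 7 markers (Epcam, Krt8 and others) between 4190 and 6350 CPM over tumor lines and between 4400 and 8980 CPM over metastases. Summed fibroblast markers (6 genes) stayed between 0.0385 and 0.775 CPM. Immune markers (6 genes) were between 1.51 and 5.28 CPM, endothelial markers (4 genes) between 0.0517 and 1.71 CPM, mesothelial markers (4 genes) between 0.356 and 6.52 CPM, and acinar markers (4 genes) between 0.129 and 1.73 CPM, with Cpa1 at 0 in every line.

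Both genes were expressed in all 16 lines, with no line near 0. Per length, the median level was 92.1 TPM for Cdkn2a, above 93.6% of the 15573 genes tested, and 35.6 TPM for Cdkn2b, above 82.6%. The ratio of Cdkn2b to Cdkn2a TPM ran from 0.187 in M1 to 0.574 in T34, so Cdkn2b was below Cdkn2a in every line. Cdkn2a rested on 610 to 5187 expected counts per line and Cdkn2b on 520 to 3415.

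Nearly all Cdkn2a RNA was Arf. The deposited isoform percentage, the share of a gene's transcripts assigned to an isoform, gave Arf between 80.68% and 100.0% in the 16 lines. Ink4a was the lesser transcript throughout, and it was the one that separated the stages. Ink4a made up 9.72% ± 5.63 (SD, n = 7) of Cdkn2a transcripts in tumor lines and 1.43% ± 2.03 (SD, n = 9) over metastasis lines.

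In mouse 1, Ink4a was 10.65% of Cdkn2a transcripts in T3 and 0.27% in M1. In mouse 2 it was 8.89% in T6 and 0.00% in M3P. In mouse 3 it was 12.46% in T19 and 3.09% in M6. The metastasis line was the lower of the pair in each of these mice. In mouse 4, Ink4a was 7.06% in T23 and 0.10% in M10. In mouse 5 it was 19.32% in T34, 4.53% in M15 and 4.62% in M16. In mouse 6 it was 0.69% in T69a and 8.98% in T69b, against 0.09% in M28, 0.09% in M29 and 0.12% in M30. Of the 7 tumor lines, 6 lay above all 9 metastasis lines. T69a was the exception and lay inside the metastasis range, although it was still above the 3 metastasis lines of its own mouse. Without T69a the tumor mean was 11.2% ± 4.36 (SD, n = 6). Metastasis lines were not uniform either, as the 3 from mice 3 and 5 kept between 3.09% and 4.62% and the other 6 had at most 0.27%.

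**Figure D1:**
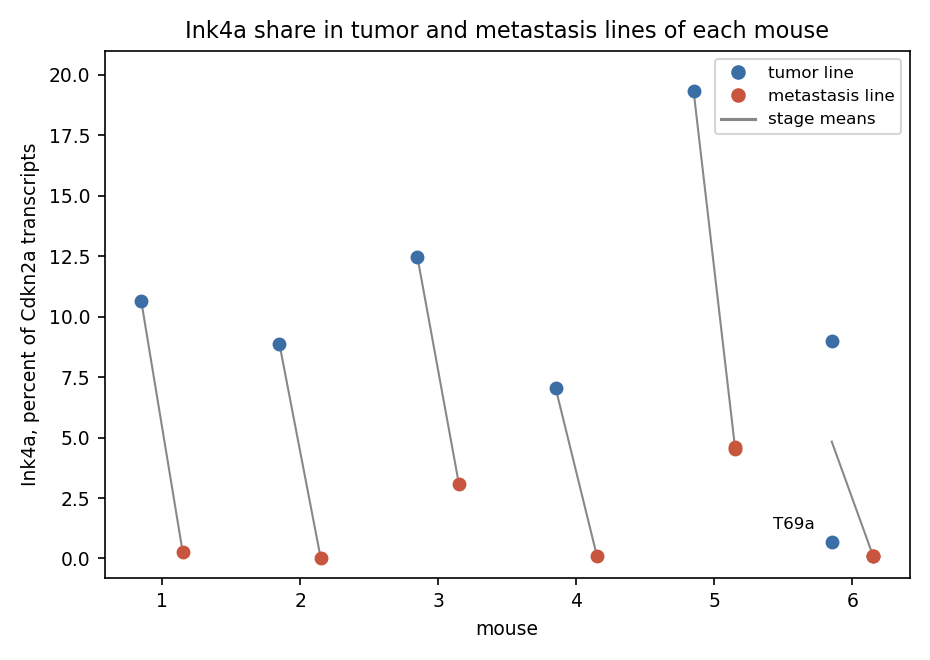
Ink4a as a percent of Cdkn2a transcripts (vertical axis) in every tumor and metastasis line (points), by mouse (horizontal axis), with lines joining the stage means. The share is lower in the metastasis lines of all 6 mice, and in mouse 6 the tumor points lie at 0.69% and 8.98%.

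Within mice the Ink4a share was lower in metastasis lines in 6 of 6, and the Arf share correspondingly higher. The Arf share rose by 10.4, 8.89, 9.37, 6.96, 14.7 and 4.74 percentage points in mice 1 to 6, a mean of 9.18 ± 3.38 (SD, 6 mice). Flipping the signs of the 6 differences in all ways (exact test, two-sided) gave p = 0.03125, the smallest that 6 mice allow. Of 18891 transcripts of genes with 20 or more counts in each line and a mean share from 10% to under 100%, 8.08% reached that same exact p and 5.6% shifted by at least as many points. Those that reached it and were higher in metastasis lines, as Arf was, made up 4.0% of all 18891. Adjusted over those transcripts, the exact p for Arf was 0.387, so this test alone does not set Arf apart. Leaving out either line of mice 1 to 4, or T34, leaves 5 mice and an exact p of 0.0625, again the smallest possible, with means between 8.07 and 9.62 points.

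The counts behind the Ink4a share were low in many metastasis lines. Tumor lines held 256 (T3), 79.5 (T6), 225 (T19), 181 (T23), 465.5 (T34), 25.9 (T69a) and 198 (T69b) expected counts of Ink4a. Metastasis lines held 13.3 (M1), 0 (M3P), 73.9 (M6), 2.58 (M10), 26.1 (M15), 124 (M16), 2.48 (M28), 2.49 (M29) and 2.68 (M30). In 5 metastasis lines Ink4a was thus below 3 counts. The 0 of 1663 Cdkn2a counts in M3P allows a share of up to 0.180%, for counting error only and if every count could show Ink4a. Only 277 of the 852 Ink4a bases are its own, so this limit is too low. Intervals and limits of this kind do not cover the error of dividing shared reads.

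As CPM, Ink4a was 4.30 ± 2.64 (SD, n = 7) over tumor lines and 0.929 ± 1.32 (SD, n = 9) over metastasis lines. On the log2 scale Ink4a fell by 4.24 with an SE of 0.81 (adjusted p = 0.0235, edgeR with a term for each mouse, over 44169 transcripts). In that fit 3.2% of transcripts passed, 2.07% of them lower and 1.13% higher in metastasis lines, as shares of all tested. The size of this difference is loosely fixed, since the lines below 3 counts enter it, and the call was narrow. It was lost with no replicate block (log2 fold change -2.31, adjusted p = 0.204), with counts summed per mouse and stage (-3.99, adjusted p = 0.0781), and without T6 and M15 together (-3.84, adjusted p = 0.0859). It was also lost on leaving out T3 (adjusted p = 0.0656), M1 (0.0625), T23 (0.0568), M10 (0.0561), T6 (0.0525), T34 (0.0512) or M3P (0.0503). DESeq2 gave -4.47 and limma on log2(TPM + 1) gave -2.15, both past the threshold (adjusted p = 2.21e-08 and 0.015). In these bulk libraries fewer cells with Ink4a and less Ink4a RNA per cell cannot be told apart.

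Arf itself did not pass the test between stages. In tumor lines Arf was 69.05 TPM (T3), 56.3 (T6), 58.3 (T19), 86.8 (T23), 70.8 (T34), 129 (T69a) and 82.5 (T69b). In metastasis lines it was 169 (M1), 72.3 (M3P), 103.3 (M6), 95.3 (M10), 41.6 (M15), 109 (M16), 105 (M28), 99.0 (M29) and 90.6 (M30). In TPM the groups overlapped, with M15 lowest of all 16 and M1 highest, and T69a was above every other tumor line. The abundant genes lower TPM in M15, where Arf was 72.5 CPM, and by CPM the lowest line was T19 (32.9). Apart from T69a (77.4 CPM), tumor lines had at most 49.2 CPM of Arf. Apart from M3P (41.7 CPM), metastasis lines had at least 57.7 CPM. On the CPM scale Arf was 46.5 ± 14.5 (SD, n = 7) over tumor lines and 63.5 ± 13.2 (SD, n = 9) over metastasis lines, and it was higher in metastasis lines in 5 of 6 mice. The log2 fold change was 0.43 (SE 0.18, adjusted p = 0.213, edgeR). Without T69a it was 0.61 (adjusted p = 0.0234), so 1 tumor line decided whether Arf passed.

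**Figure D2:**
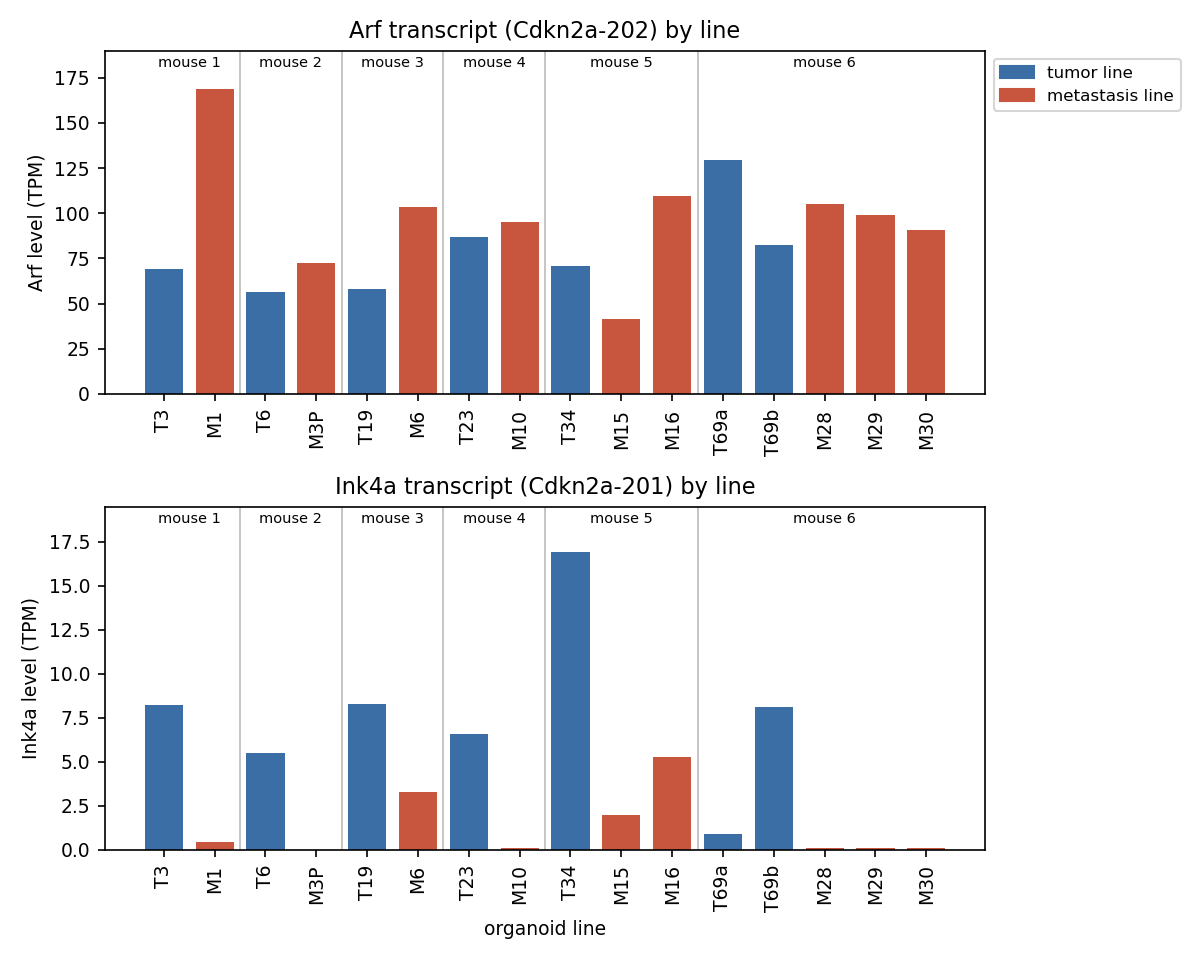
Arf (upper panel) and Ink4a (lower panel) in TPM (vertical axes, each from 0) in the 16 organoid lines (bars), colored by stage. Arf runs from 41.6 to 169 TPM with overlapping stages, while Ink4a reaches 16.9 TPM in T34 and is at most 5.30 TPM in metastasis lines. The lowest Arf bar is M15, where abundant genes lower TPM and Arf is 72.5 CPM.

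The gene total followed Arf. In tumor lines Cdkn2a was 43.8 CPM (T3), 47.6 (T6), 36.6 (T19), 52.3 (T23), 50.3 (T34), 78.1 (T69a) and 44.6 (T69b). In metastasis lines it was 90.3 (M1), 41.9 (M3P), 66.0 (M6), 62.1 (M10), 78.8 (M15), 62.1 (M16), 58.4 (M28), 59.7 (M29) and 61.5 (M30). T69a was 1 tumor line among metastasis values and M3P 1 metastasis line among tumor values. The 6 other tumor lines lay at or below 52.3 CPM, and the 8 other metastasis lines at or above 58.4 CPM. The means were 50.5 ± 13.2 (SD, n = 7) and 64.5 ± 13.5 (SD, n = 9), and the fitted log2 difference was 0.32 (SE 0.16, adjusted p = 0.191, edgeR), higher in metastasis lines in 5 of 6 mice. Cdkn2a was not among the 16.5% of 15573 genes that passed (6.59% higher and 9.92% lower in metastasis lines). Without T69a the value was 0.48 (adjusted p = 0.0245), as for Arf.

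Cdkn2b showed no difference between stages past the test. In tumor lines it was 25.3 CPM (T3), 33.5 (T6), 25.8 (T19), 48.3 (T23), 49.2 (T34), 67.0 (T69a) and 24.6 (T69b). In metastasis lines it was 28.4 (M1), 14.1 (M3P), 44.7 (M6), 24.2 (M10), 67.2 (M15), 36.1 (M16), 43.4 (M28), 51.3 (M29) and 50.6 (M30). Both groups spread over the same range, with M3P the lowest line for this gene. The means were 39.1 ± 16.2 (SD, n = 7) and 40.0 ± 16.1 (SD, n = 9), and the log2 fold change was -0.12 (SE 0.27, adjusted p = 0.781, edgeR). Mice went both ways, with within-mouse log2 differences from -1.25 in mouse 2 to 0.79 in mouse 3. Leaving out T6, T23, M10, T69a or M3P turned the sign, to at most 0.04.

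**Figure D3:**
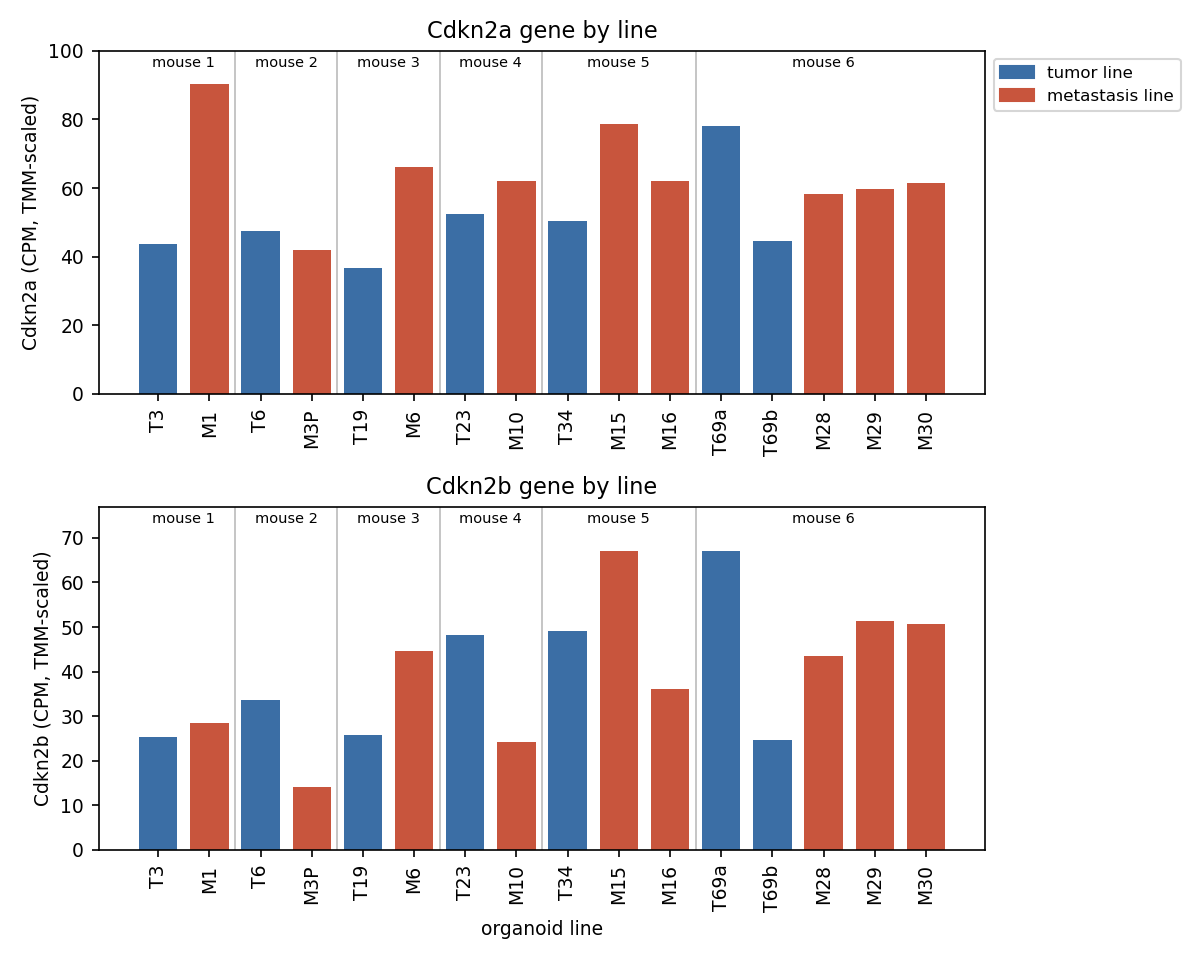
Cdkn2a (upper panel) and Cdkn2b (lower panel) in CPM on TMM-scaled library sizes (vertical axes, each from 0) in the 16 organoid lines (bars), colored by stage. Cdkn2a is between 36.6 and 90.3 CPM and Cdkn2b between 14.1 and 67.2 CPM, and T69a is the highest tumor line in both.

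By site, mean Cdkn2a ran in the order liver (74.3 ± 22.6 CPM, SD, n = 2), diaphragm (69.2 ± 13.5, n = 2), lung (62.1, 1 line), ovary (61.5, 1 line), peritoneum (56.7 ± 12.9, n = 3) and primary tumor (50.5 ± 13.2, n = 7). For Cdkn2b the order was diaphragm (59.2 ± 11.2 CPM, SD, n = 2), ovary (50.6, 1 line), primary tumor (39.1 ± 16.2, n = 7), lung (36.1, 1 line), liver (35.9 ± 10.6, n = 2) and peritoneum (27.6 ± 15.6, n = 3). Neighbors in either order differed by less than the SD wherever a site had more than 1 line. The test of equal site terms gave an adjusted p of 1.00 for both genes (edgeR). It passed 0 of 15573 genes (0.0%), with 266 at an unadjusted p under 0.05, and limma passed 2. Only 5 residual degrees of freedom were left in that fit. Lung and ovary had 1 line each, so there the site cannot be told apart from the single line. The Ink4a share was highest among metastases in the lung line (4.62%), while the diaphragm lines held 4.53% (M15, mouse 5) and 0.09% (M29, mouse 6). The 2 diaphragm lines thus spanned nearly the whole range of the metastasis lines.

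By mouse, mean Cdkn2a was 67.0 ± 32.9 CPM in mouse 1 (SD over lines, n = 2), 63.7 ± 14.3 in mouse 5 (n = 3), 60.5 ± 11.9 in mouse 6 (n = 5), 57.2 ± 6.90 in mouse 4 (n = 2), 51.3 ± 20.8 in mouse 3 (n = 2) and 44.7 ± 4.01 in mouse 2 (n = 2). For Cdkn2b, mouse 5 was highest at 50.8 ± 15.6 CPM (n = 3) and mouse 2 lowest at 23.8 ± 13.8 (n = 2). Neither gene passed the test for differences between mice beyond the spread of their lines, and 2 lines in each of mice 1 to 4 limit what it can detect. The adjusted p of the mouse terms was 0.746 for Cdkn2a and 0.438 for Cdkn2b (edgeR), in a test that 0.154% of genes passed.

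The other CDK inhibitors gave a single call. Of 5 listed and tested, 0 rose and 1 fell, where 6.59% of all genes rose and 9.92% fell. The median log2 fold change was 0.10, against -0.02 over all genes tested. The one called was Cdkn1a, the p21 inhibitor and a p53 target, at 26.2 ± 9.02 CPM (SD, n = 7) in tumor and 6.29 ± 4.21 (SD, n = 9) over metastasis lines (adjusted p = 0.00313 for a log2 fold change of -2.24, SE 0.34). Cdkn2d, the p19Ink4d relative of Ink4a, had a log2 fold change of 0.48 (adjusted p = 0.101), higher in 6 of 6 mice. Cdkn1b (p27) was at 0.16 (adjusted p = 0.566), Cdkn2c (p18) at 0.09 (0.743) and Cdkn1c (p57) at -0.02 (0.987).

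Counts of the lists that follow are read against all 15573 genes tested, of which 6.59% rose and 9.92% fell. Downstream of Ink4a and Cdkn2b, of 11 genes for cyclins D and E, their kinases and pocket proteins, 0 rose and 1 fell (median -0.07), near the share over all genes. Cdk4, the kinase that both inhibitors bind, fell by 0.47 on the log2 scale (adjusted p = 0.0244), lower in 6 of 6 mice. Cdk6, the other such kinase, was at 0.22 (adjusted p = 0.199), the D-type cyclin Ccnd1 at -0.36 (0.220) and the pocket protein Rbl2 at -0.26 (0.171). Among 10 E2F factors and partners, 2 rose and 0 fell (median 0.28), namely E2f2 by 0.75 (adjusted p = 0.0224) and E2f5 by 0.43 (0.0372, but 0.0524 with no replicate block). E2f4 was at 0.40 (adjusted p = 0.0688) and E2f1 at 0.31 (0.140). Of 16 E2F target genes of DNA replication and the cell cycle, 0 passed in either direction (edgeR), 2 had an unadjusted p under 0.05, both higher, and DESeq2 passed 1 and limma 0. The lowest p was that of Ccna2, the cyclin A2 gene, at 0.44 (adjusted p = 0.0609). Rrm2, a subunit of ribonucleotide reductase, was at 0.38 (adjusted p = 0.104), and the list's median was 0.13.

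On the Arf side, Mdm2 and Mdm4, the pair of p53 inhibitors, fell by 1.32 (SE 0.21, adjusted p = 0.00385) and 0.29 (SE 0.09, adjusted p = 0.0392) on the log2 scale, each in 6 of 6 mice. With no replicate block Mdm4 did not pass (adjusted p = 0.0592). They were the only 2 called of 9 Arf partners, and 0 rose (median -0.12), where 9.92% of all genes fell. Mdm2 is itself a p53 target. Trp53 RNA was at -0.13 (SE 0.14, adjusted p = 0.556), with 63.8 ± 14.2 CPM (SD, n = 7) in tumor and 57.7 ± 7.55 (SD, n = 9) over metastasis lines. Ttf1, a termination factor of ribosomal RNA genes, was at -0.12 (adjusted p = 0.297) and Cdkn2aipnl at -0.21 (0.303).

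The p53 targets held the largest share of called genes among the 8 lists. Of 15 targets, 13 fell and 0 rose (median -1.74), where 9.92% of all genes fell. Eda2r, a death receptor family gene, fell from 49.9 ± 29.2 CPM (SD, n = 7) to 0.0857 ± 0.0915 (SD, n = 9), with adjusted p = 0.000137. Trp53inp1 fell by 3.63, Ccng1 (cyclin G1) by 2.68 and Polk, a DNA polymerase, by 1.28 on the log2 scale (adjusted p = 0.00109, 0.00129 and 0.00134). Tnfrsf10b (-0.18, adjusted p = 0.402) and Tigar (0.35, adjusted p = 0.393) were the 2 that did not pass, and are named after their values were seen.

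The mean log2 CPM of the 15 targets ran from 4.98 to 5.44 in 6 tumor lines, was 3.53 in T69a and ran from 2.17 to 3.30 in the 9 metastasis lines. T69a, the tumor line with the smallest Ink4a share and the highest Cdkn2a level, was therefore also the tumor line with the lowest p53 target level. The 6 lines with a target level of at least 4.98 had an Ink4a share of at least 7.06%, and the 10 others had at most 4.62%. No correlation is given because the lines form separate groups. The part of the p53 targets in the Ink4a share was not tested.

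**Figure D4:**
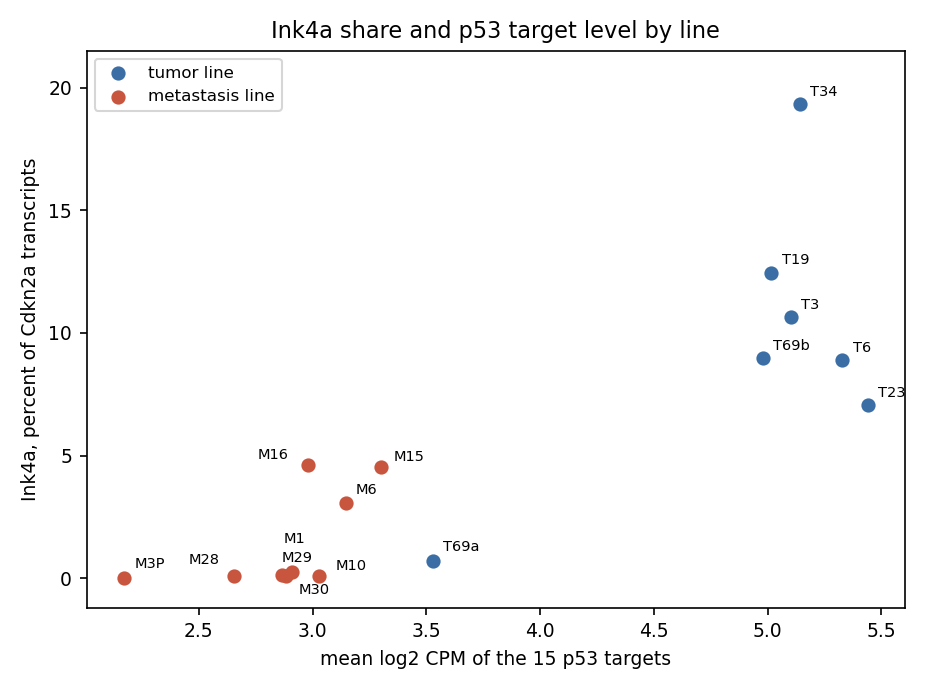
Ink4a as a percent of Cdkn2a transcripts (vertical axis) against the mean log2 CPM of the 15 p53 targets (horizontal axis) in 16 organoid lines (points), colored by stage. The tumor line T69a, at 3.53 and 0.69%, lies beside the metastasis lines and apart from the 6 other tumor lines.

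Factors known to act on the locus were listed as well. Of 17 repressors, among them the Polycomb proteins that silence it, 14 were tested, 2 rose and 0 fell (median -0.02), where 6.59% of all genes rose and 9.92% fell. Cbx7, a Polycomb subunit, rose by 0.48 (adjusted p = 0.0269) and Foxm1, a mitotic transcription factor, by 0.55 (0.0343). Bmi1 and Ezh2, the best known Polycomb regulators of Ink4a and Arf, were at 0.07 (adjusted p = 0.767) and 0.00 (0.989), values named after they were seen. Zbtb17 (Miz1) was at -0.30 (adjusted p = 0.0926) and the demethylase gene Kdm2b at -0.30 (0.154). Tbx2, Tbx3 and Twist1 did not pass the count filter and were not tested. Tbx2 averaged 0.0364 CPM in tumor lines and 4.61 ± 7.39 (SD, n = 9) over metastasis lines, where the highest line had 17.7 CPM. Tbx3 was at most 0.473 CPM and Twist1 at most 2.23 CPM. Of 14 activators, 2 rose and 1 fell (median 0.12), against 16.5% of all genes called in either direction. Runx1 rose by 0.98 (adjusted p = 0.0052), Junb, an AP-1 subunit, by 0.44 (0.0464), and Foxo3 fell by 0.75 (0.0124). With no replicate block Junb and Foxo3 did not pass (adjusted p = 0.0745 and 0.0546). Foxo1 was at 0.23 (adjusted p = 0.243). Smad2, which carries TGF-beta signals that induce Cdkn2b and was named after its value was seen, was at 0.15 (adjusted p = 0.267).

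**Figure D5:**
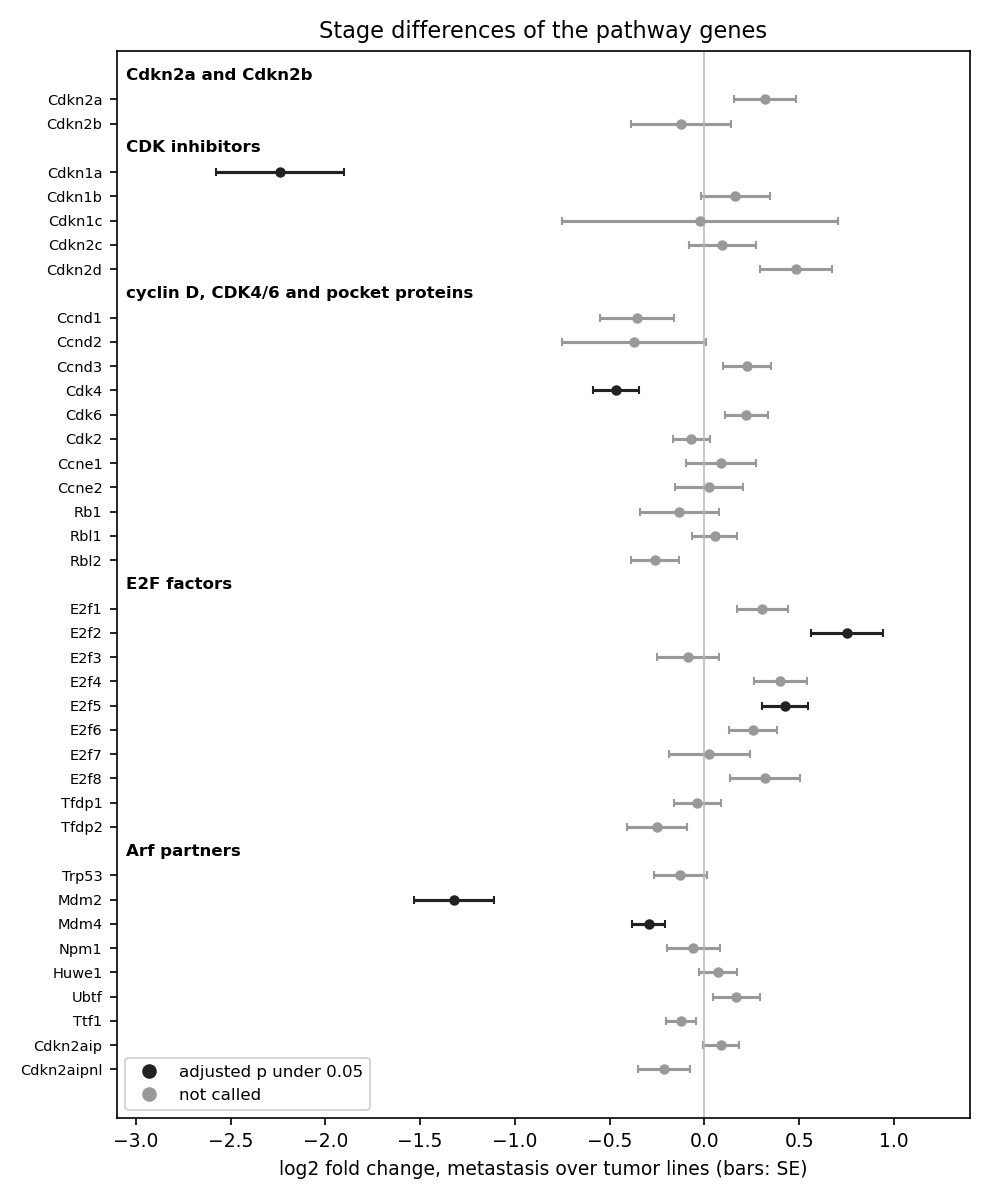
Log2 fold change of metastasis over tumor lines (horizontal axis) with its SE (bars) for Cdkn2a, Cdkn2b and named genes of the pathway lists (vertical axis), dark where the adjusted p is under 0.05. Cdkn1a and Mdm2 lie to the left of 0, with Cdkn2a at 0.32 and Cdkn2b at -0.12. Of the p53 target list only Cdkn1a is drawn.

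Around the locus, 40 annotated genes had an end within 500 kb, 9 of them were tested, and 2 passed, neither of them a member, where 16.5% of all genes passed. Both were noncoding RNA genes named after their values were seen, AL805899.2 (log2 fold change 1.23, adjusted p = 0.0225) and Gm12602 (1.47, adjusted p = 0.0194), each below 3 CPM in all lines. Mtap, the purine salvage gene that human tumors often lose together with CDKN2A, was expressed in all lines, at 112 to 242 CPM, with a log2 fold change of 0.26 (adjusted p = 0.199). Dmrta1, on the far side of Cdkn2b, was at most 0.182 CPM and was not tested. With Cdkn2a, Cdkn2b and Mtap expressed in every line, no line lacked RNA of these 3 genes.

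Genes whose level ran most like that of each member were found by Pearson's r of log2 CPM over the 16 lines, among 11322 genes. The points share mice and stages, so r is a description. For Cdkn2a they were Smurf1 (r = 0.919), a ubiquitin ligase gene of the BMP and TGF-beta pathways, Emp3 (0.901), the stress-induced factor Atf3 (0.886), Nfu1 (0.882) and Castor2 (0.878). For Cdkn2b they were Serinc2 (r = 0.910), the receptor gene Erbb3 (0.905), Fam98c (0.893), Abca7 (0.883) and Zfp46 (0.878). Cdkn2a and Cdkn2b had r = 0.563 with each other, so neither neighbor was among the genes most like the other. For the Ink4a transcript, added after the values were seen, they were Flrt2 (0.939), Gpc6 (0.925), Chd9 (0.923), Ddit4l (0.917) and Alg2 (0.903).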

How the data were processed

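RNA of 16 mouse organoid lines (7 tumor, 9 metastasis, 6 mice) was depleted of ribosomal RNA and sequenced from stranded libraries, per the labels' protocols. Per the submitters' processing notes, FastQC 0.11.8, STAR 2.6.0c and RSEM 1.3.1 were used on GRCm38.p6. The strand setting of the counting is not given in the sources used here. Per the file headers, the authors' gene and isoform tables hold expected counts, which RSEM estimates by dividing ambiguous reads. The authors also deposited TPM, scaled to a fixed total per library, so that abundant genes lower all others. Isoform percent, the deposited percent of a gene's transcripts, comes from the same estimates.

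Expected counts were rounded. Stage was tested with edgeR 4.0.16 (quasi-likelihood, TMM, filterByExpr by stage, a term per mouse) in R 4.3.3, on all genes or all transcripts, with Benjamini-Hochberg adjustment and a threshold of 0.05. Adjusted p values come from edgeR except where DESeq2 or limma is stated. Each SE of a log2 fold change is the absolute fold change on that scale divided by the square root of edgeR's F. It is therefore approximate, above all at low counts such as those of Ink4a. Isoform percent was compared by an exact sign-flip test over mice. Mouse terms and site terms were tested by F tests in edgeR. The mouse labels pair the lines. Lines of 1 mouse share an animal, so p values partly measure the spread between cultures. Gene names came from GENCODE M21 (55394 of 55487 identifiers matched, 93 not). No 2 lines had identical counts. Alternatives were fits without the mouse term, RLE factors, no count filter, DESeq2 1.42.0, limma 3.58.1 on log2(TPM + 1), sums of counts over the lines of 1 mouse and stage, omission of the abundant genes, and each line left out. Leaving out T6 and M15 in the transcript fits was chosen after seeing the data. The fits were tested on simulated data with 200 changed features. At a log2 change of 1 they recovered 95.9% of changed genes among 15639 and 89.6% of changed transcripts among 43952. False calls numbered 11 in the gene fit and 4 in the transcript fit. Every simulated feature had the same dispersion, so these rates do not carry over to noisier ones such as Ink4a.

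The members and lists were chosen with earlier results of these data known. Named genes were both members, Trp53, Mdm2, Mdm4, the CDK inhibitors, Mtap, Dmrta1, up to 4 genes per list with the lowest p, and the 5 genes most like each member. Other genes are said to have been named after their values were seen.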

Additional observations from a re-analysis of the deposited data

Results flagged for a closer look

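In 30 groups of values over lines, the highest or lowest line was set against the others by Dixon's gap ratio, and 4 groups held a line that stood apart. Chance alone marks about 1 in 20 such groups. All 4 concerned T69a among the 7 tumor lines. Its Arf level was 129.4 TPM and 77.36 CPM, its Cdkn2a level 78.12 CPM, and each was the highest of the tumor lines. Its mean log2 CPM of the 15 p53 targets was 3.527, the lowest of the tumor lines. The 3 measures of Cdkn2a and Arf are not independent of each other. T69b, the other tumor line of the same mouse, had 44.6 CPM of Cdkn2a and a p53 target level of 4.98. Why these lines of 1 mouse differ was not tested.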

How the results depend on the processing

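The lower Ink4a transcript in metastasis lines kept its direction in 23 of 23 alternatives and passed in 13. It did not pass with no replicate block (-2.31), with counts summed per mouse and stage (-3.99) or without T6 and M15 (-3.84). Single lines left out gave -4.80 to -3.53, with 7 of 16 not passing. The gain of the Arf share ran from 8.07 to 9.87 points over single lines left out, and 9 of 16 leave 5 mice, where the smallest exact p is 0.0625. Single lines left out gave 0.32 to 0.61 for the Arf transcript and 0.21 to 0.48 for Cdkn2a, and each passed in 1 of 16, without T69a. Cdkn2b did not pass in any of 24 alternatives, changed sign with no replicate block (0.029) and ran from -0.28 to 0.039 with single lines left out. The number of genes called, 2571, was 4272 with DESeq2, 794 with limma on log2(TPM + 1), 794 without T6 and M15, and 1133 to 3910 with single lines left out. It moved by over 1.5 times without T3 (1521), M1 (1511), T6 (1427), T19 (1290), M6 (1268), M10 (1669), T34 (1133), T69a (3910) or M3P (1402). Apart from fewer lines, the cause of these shifts was not tested. With no replicate block 2219 genes passed, and of 25 genes called from the lists and the locus window 21 were called again. The other 4 were E2f5 (adjusted p = 0.0524), Mdm4 (0.0592), Junb (0.0745) and Foxo3 (0.0546). The calls on Cdkn2a, Cdkn2b, Arf and the sites were the same without the block. Of the same 25 genes DESeq2 called all and limma on log2(TPM + 1) called 14, losing Cdk4, E2f2, E2f5, Mdm4, Aen, Fas, Cbx7, Foxm1, Junb, AL805899.2 and Gm12602, with 0 changes of sign in either. Ink4a was at under 3 counts in 5 lines, which limits its estimate there.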
